A study of Mus musculus with 24 samples.

Results

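The medial prefrontal cortex (mPFC) of 6 mice given *Ruminococcus flavefaciens* and no drug was compared with that of 6 control mice, 12 of the 24 mice of the series, across all genes. Members were taken by treatment label alone, so no measured value chose them. All 24 mice were male BALB/c OlaHsd animals, given as 11 weeks old in the labels, with 1 RNA-seq library from the mPFC of each. According to the study's methods, the bacterium, an anaerobe of the gut that breaks down plant fibre, was given alive by gavage, daily at first and less often later, and controls received the buffer (PBS). The other 12 mice received duloxetine, an antidepressant that blocks serotonin and norepinephrine reuptake, alone (6 mice) or with the bacterium (6 mice), and they entered here in the shared estimate of spread and in a second look at the bacterium. The question was what the bacterium does in this brain region in the absence of the drug. The labels name control mice 1_1, 2_1, 2_2, 2_3, 3_1 and 3_3, and treated mice 7_2, 8_3, 8_4, 9_1, 9_2 and 9_3. No first number occurs in both groups, so whatever it stands for (the sources used here do not say) cannot be told apart from the treatment. Animals were group housed, and the cage of each mouse is not given in the sources used here. No gene in the table marks receipt of the bacterium, so the treatment labels could not be checked against the values. Each mouse is a separate animal, but the tissue is a bulk punch of cortex, in which fewer cells of a type and less RNA per cell cannot be told apart.

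The mPFC holds excitatory projection neurons, several kinds of GABA-releasing interneurons and glia. Mitochondria make most of the ATP of neurons by oxidative phosphorylation. Complexes I, III and IV pass electrons from NADH to oxygen and pump protons, complex II feeds in electrons from succinate, and ATP synthase uses the proton gradient. Most subunits of these complexes are encoded in the nucleus by short, highly transcribed genes, and 13 mRNAs come from the mitochondrial genome. At excitatory synapses glutamate opens AMPA, NMDA and kainate receptors, and cadherins and protocadherins join the presynaptic and postsynaptic membranes. Many of these neural genes are very long.

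The values are normalized counts, which behave as reads per gene divided by 1 size factor per mouse. Recovered reads ranged from 13435517 to 14446451 in the control and from 12811413 to 14775494 in the treated mice, and the group means did not differ beyond the spread between mice (exact permutation test, two-sided, p = 0.738, n = 6 per group). Of 15456 genes, 14974 had a mean of at least 10 normalized counts and were tested with limma on log2(normalized count + 1). Log2 fold changes are treated minus control on that scale. Mouse 9_3 stood furthest from the control mean in most gene groups described here, so the main gene groups are also given without it. Mouse 8_4 had the most blood, choroid plexus and striatal RNA among the treated mice, and control mouse 2_2 the most meningeal and olfactory bulb RNA among the controls, as detailed with the marker genes. Every expression level in the text is a normalized count per gene, not per length, and levels are compared between mice. Where a gene is called the most abundant, it has the highest mean normalized count of its list, which depends on transcript length as well as on expression.

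At an adjusted limma p-value under 0.05, 2 genes rose (0.0134 percent of the genes tested) and 2 fell (0.0134 percent). These calls rest on the spread estimated over all 4 groups: fitted on these 2 groups alone, limma called 0 genes, with 1170 higher and 1348 lower at an unadjusted p under 0.05, and edgeR called 0, with 1258 and 1200. With a trend on the longest transcript of each gene removed, limma called *Olfr729* alone, at 1.36 on the log2 scale, while *Cox8a* was at 0.20, *Zfp318* at -0.10 and *Znrf3* at -0.23. The risen genes were *Olfr729*, a member of the olfactory receptor family, and *Cox8a*, a small subunit of complex IV. The fallen ones were *Zfp318*, a zinc finger protein, and *Znrf3*, a membrane ubiquitin ligase that removes Wnt receptors from the cell surface.

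The locus of *Olfr729* (ENSMUSG00000049011.2) spans 50144731 to 50152910 on chromosome 14 (GRCm38, minus strand). Its lowest, median and highest values were 63.7, 87.2 and 95.7 normalized counts in the control mice and 163, 183 and 465 in the treated mice. Every treated mouse was above every control mouse, and the highest value, in mouse 9_3, was far above the other 5. The log2 fold change was 1.33 (standard error 0.23, limma adjusted p = 0.0261), and 1.11 without mouse 9_3. The groups did not overlap in *Cox8a* either (ENSMUSG00000035885.4, minus strand of chromosome 19, 7215158 to 7217616), with 2626, 2994 and 3193 against 3397, 3703 and 4603 normalized counts. *Cox8a* thus differed by 0.36 on the log2 scale (standard error 0.065, limma adjusted p = 0.0261), and by 0.31 without mouse 9_3, which was again the highest.

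*Zfp318* (ENSMUSG00000015597.16, plus strand of chromosome 17, 46383731 to 46420920) had a lowest, median and highest value of 838, 920 and 992 in the control and 685, 768 and 801 in the treated mice, and again no treated mouse reached a control mouse. Its log2 fold change was -0.29 (standard error 0.051, limma adjusted p = 0.0261). *Znrf3* (ENSMUSG00000041961.14, minus strand of chromosome 11, 5276324 to 5444847) had 278, 291 and 306 against 221, 228 and 264, which makes -0.31 on the log2 scale (standard error 0.057, limma adjusted p = 0.0261). Here the values of the treated mice lay close together, and mouse 8_4 was the highest of them.

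**Figure D1:**
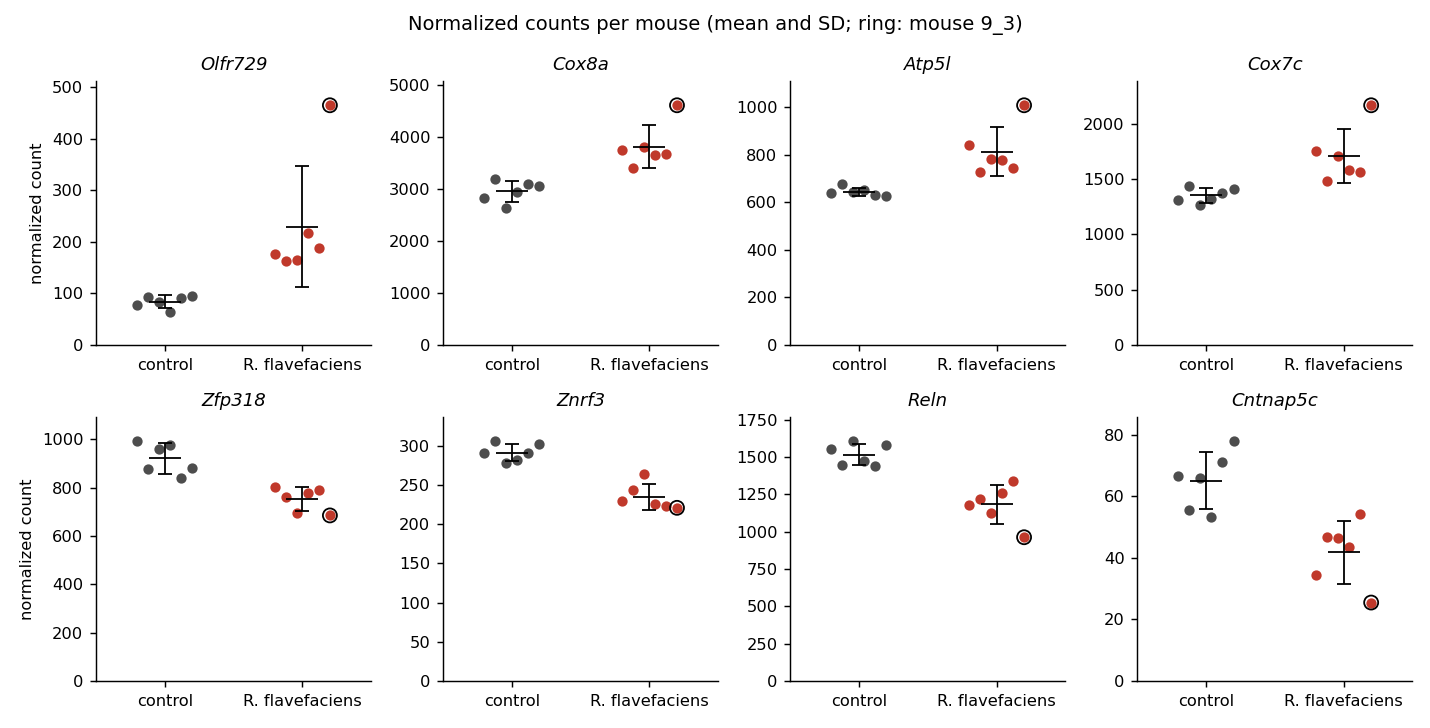
Normalized counts per mouse (vertical axes, each from 0) in 6 control and 6 *R. flavefaciens* mice for 8 genes, with points for mice, a line and bars for mean and SD, and a ring around mouse 9_3. The treated mice lie outside the control range in every panel but that of *Cntnap5c*, and mouse 9_3 is the most distant one in each panel but is close to its group in *Zfp318* and *Znrf3*.

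Beyond these 4, no gene passed the adjusted limma threshold, and the 16 other protein coding genes with the smallest limma p-values, 8 higher and 8 lower, all had an adjusted limma p of 0.0687. On the higher side these were *Atp5l* (ATP synthase), *Cox7c* (complex IV), *Ndufa1* and *Ndufb9* (complex I), *Hspe1* (the co-chaperone of the mitochondrial chaperonin), *Polr2g* (RNA polymerase II), *Arl3* (a small GTPase of cilia) and *Upf3b* (nonsense-mediated decay). *Atp5l* ranged from 628 to 675 counts in the control mice, with a median of 641, and from 728 to 1008, with a median of 780, in the treated mice. All 6 treated mice were above all controls, at a log2 fold change of 0.33 (standard error 0.065) that was 0.26 without mouse 9_3. *Cox7c* had 1263, 1347 and 1433 against 1485, 1644 and 2165 counts, also without overlap, and a log2 fold change of 0.33 (standard error 0.067). *Hspe1* had 554 to 637 counts in the control and 659 to 771 in the treated mice, where mouse 9_1 was highest. It differed by 0.27 (standard error 0.056) with all mice and by 0.26 without 9_3.

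The 8 lower genes were *Reln* (reelin, an extracellular protein that guides neuronal positioning and synapses), *Tenm3* and *Cntnap5c* (neuronal adhesion), *Csmd2* (a synaptic transmembrane protein), *Tbc1d24* (vesicle traffic), *Pcdhb16* (a clustered protocadherin), *Nup155* (the nuclear pore) and *Gm38393*. *Reln* had a lowest, median and highest value of 1439, 1513 and 1606 counts in the control and 963, 1201 and 1339 in the treated mice, with no overlap. The log2 fold change was -0.37 (standard error 0.077). *Tenm3* spanned 1501 to 1657 in the controls and 746 to 1474 in the treated mice, a log2 fold change of -0.52 (standard error 0.11) that was -0.41 without mouse 9_3. *Cntnap5c* overlapped by 1 treated mouse and was lower by -0.65 (standard error 0.13) in log2 fold change.

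The limma count is small beside the number of genes with an unadjusted limma p under 0.05, which were 1327 higher (8.86 percent of those tested) and 1612 lower (10.8 percent). The mice of the groups did not overlap in 118 genes that were higher (0.788 percent) and 125 that were lower (0.835 percent). DESeq2 on the recovered reads of all 4 groups, the program the study's methods name, called 246 genes higher (1.64 percent) and 242 lower (1.62 percent) at an adjusted p under 0.05. On the 2 groups alone DESeq2 called 37 higher and 20 lower. The DESeq2 counts of the gene groups below are from the 4-group fit. Without mouse 9_3 DESeq2 called 24 higher and 43 lower, and limma called none. Leaving out control mouse 1_1, 2_2 or 2_3 also left limma with 0 calls, and leaving out treated mouse 7_2 or 8_4 or control mouse 3_1 or 3_3 left 2, while leaving out treated mouse 9_2 gave 616, mouse 8_3 427 and mouse 9_1 239. In the gene groups below, counts are of members with an unadjusted limma p under 0.05, followed by those DESeq2 called where there were any, and medians stand beside a median log2 fold change over all tested genes of 0.0031. These counts also depend on transcript length, so they are given again with a smooth trend on length removed from each mouse, first with the median and then with the longest transcript of each gene. Of 27 lists with at least 4 members in the direction of their median, 6 fell by over 1.5 times with the first and 22 with the second. The shares of all genes at an unadjusted p under 0.05 also changed with the setting, and each count is to be read beside its own. They were 5.38 percent higher and 6.13 percent lower without mouse 9_3, 7.03 and 8.76 percent with the trend on the median transcript removed, and 5.59 and 5.33 percent with that on the longest. Leaving out one of the other 11 mice gave 7.25 to 10.3 percent higher and 9.08 to 12.7 percent lower.

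Most nuclear subunit genes of complexes I, III and IV and of ATP synthase were higher at an unadjusted limma p under 0.05. Of 36 complex I subunits, all tested, 26 were higher at an unadjusted p under 0.05 and none lower, DESeq2 called 14, and the median log2 fold change was 0.19. *Ndufa1* went from 342, 363 and 393 to 407, 458 and 583 counts without overlap, and mouse 9_3 was the highest of the treated mice. Complex IV had 13 of 15 nuclear subunits higher and none lower, 9 of them called by DESeq2, and a median of 0.22. *Cox4i1*, its most abundant nuclear subunit, had 4074 ± 142 (SD, n = 6) against 4674 ± 777 (SD, n = 6), and its log2 fold change of 0.18 (standard error 0.071) was 0.10 without mouse 9_3.

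ATP synthase had 15 of 17 nuclear genes higher and none lower, with 7 called by DESeq2 and a median of 0.19. *Atp5b*, the catalytic beta subunit and the most abundant, was one of the other two, at 0.06 (standard error 0.043). In complex III with cytochrome c, 6 of 10 were higher, 4 called by DESeq2, with a median of 0.16. *Uqcrq*, with the smallest p of these, was at 0.29 (standard error 0.066) and *Uqcrc1*, a large core subunit, was at 0.08 (standard error 0.055). Complex II, of which only 4 genes exist, had 2 higher, 0 called by DESeq2 and a median of 0.10. *Sdhc*, a membrane anchor, was at 0.14 (standard error 0.058), and *Sdha*, the flavoprotein, at -0.0016 (standard error 0.038). Of the 13 mRNAs of the mitochondrial genome 3 were higher and none was called by DESeq2 (median 0.14). Among these *mt-Co3* had 46864 to 51218 counts in the control and 49901 to 70850 in the treated mice, and *mt-Co1*, the most abundant, differed by 0.11 (standard error 0.094).

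Without mouse 9_3 the same direction remained, at 22 complex I, 11 complex IV, 11 ATP synthase and 6 complex III genes higher, with medians of 0.13, 0.17, 0.13 and 0.13. The mitochondrial mRNAs then had 1 gene higher, complex II 0. After removal of the trend on the median transcript, 21 complex I, 11 complex IV, 11 ATP synthase and 5 complex III genes were higher, and 3 mitochondrial mRNAs. With that on the longest transcript removed, these were 9, 6, 7 and 2, with no mitochondrial mRNA higher and 1 lower, so most subunit genes no longer passed. The complex I assembly factors, which build the complex and are not part of it, had 1 of 14 higher (*Ndufaf8*, 0.24, standard error 0.11), a median of 0.079, and *Ecsit*, the most abundant, at 0.02 (standard error 0.048).

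NRF1 and factors of the ETS family are known to bind promoters of many nuclear genes for respiration. The 250 bases before the start (RefSeq, GRCm38.p6) were therefore searched on both strands for GCATGCGC (NRF1) and CCGGAAG (ETS), neither of which contains the other. Of the 78 nuclear subunit genes of complexes I, III, IV and ATP synthase, 62 matched the table, with 67 promoters. Of these, 11.9 percent held the NRF1 letters and 16.4 percent the ETS letters, against 3.96 and 12 percent of the 14332 promoters of tested genes, and 2.26 and 6.91 percent of all 32851 in the table. The NRF1 letters were in 10.8 percent of 74 mitochondrial ribosomal and in 0 of 69 cytoplasmic ribosomal promoters, and the ETS letters in 23 and 26.1 percent. Neither set of letters was found in 24 promoters of cadherins, which covered 21 of their 85 genes. The other letters searched, AAGATGGC (YY1), CCAAT (the box named for these letters), TATAAA (the TATA box) and TGACGTCA (CRE), were in 1.49, 40.3, 8.96 and 7.46 percent of the respiratory promoters and in 1.84, 34.8, 6.64 and 2.57 percent of those of tested genes. The windows of the called complex IV gene and of the ATP synthase gene with the smallest p-value are shown because they differ: that of *Cox8a* (chr19:7217617-7217866, minus strand) holds neither, and that of *Atp5l* (chr9:44920743-44920992, minus strand) holds the NRF1 letters from base 240 and the ETS letters from base 212 before the start, both in capitals, the latter as CTTCCGG on the printed strand. A match is a description of letters, not of a bound site.
Cox8a: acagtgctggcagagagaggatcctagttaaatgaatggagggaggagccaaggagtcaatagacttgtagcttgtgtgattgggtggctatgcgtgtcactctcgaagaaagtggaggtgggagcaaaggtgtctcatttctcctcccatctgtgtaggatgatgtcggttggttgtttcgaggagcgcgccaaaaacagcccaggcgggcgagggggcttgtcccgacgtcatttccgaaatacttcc
Atp5l: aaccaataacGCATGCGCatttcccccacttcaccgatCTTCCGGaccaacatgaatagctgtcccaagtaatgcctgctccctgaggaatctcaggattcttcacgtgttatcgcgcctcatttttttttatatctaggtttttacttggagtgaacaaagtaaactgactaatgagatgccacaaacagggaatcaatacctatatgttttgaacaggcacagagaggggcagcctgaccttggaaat

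Genes for making and removing proteins were taken next. All 80 cytoplasmic ribosomal protein genes had a positive log2 fold change, 68 of them at an unadjusted p under 0.05 and 22 called by DESeq2, with a median of 0.22. Without mouse 9_3 those 68 became 37, and with the trend on the median or longest transcript removed 57 or 36. *Rpl41* had a lowest, median and highest value of 1528, 1561 and 1610 counts in the control and 1771, 1865 and 2905 in the treated mice, where 9_3 was the highest. Its log2 fold change was 0.37 (standard error 0.092) and that of *Rps2*, the most abundant, 0.27 (standard error 0.08). Many processed copies of ribosomal genes exist in the genome, so reads of this family may be split between near-identical sequences.

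Of 77 mitochondrial ribosomal proteins 24 were higher and none lower, 6 called by DESeq2, with a median of 0.10. *Mrpl34* was at 0.30 (standard error 0.082), *Mrpl3*, the most abundant, at 0.0091 (standard error 0.046), and 14 were higher without mouse 9_3. Of 37 proteasome subunits 20 were higher, 4 called by DESeq2 (median 0.11), and 8 were higher without mouse 9_3 and 11 without mouse 7_2. *Psma7* of the proteasome core was at 0.21 (standard error 0.054) and *Psmd2* of the regulatory particle at 0.0041 (standard error 0.043). Mitochondrial import had 7 of 20 higher, 4 called by DESeq2 (median 0.10), with *Timm8b*, a chaperone of the intermembrane space, at 0.24 (standard error 0.055) and *Tomm20*, an outer membrane receptor, at -0.04 (standard error 0.046). Antioxidant genes had 9 of 22 higher, 4 called by DESeq2, and 1 lower (median 0.14), and mitochondrial thioredoxin, *Txn2*, which had the smallest p, was at 0.17 (standard error 0.049). *Sod2*, the abundant superoxide dismutase of mitochondria, was at -0.09 (standard error 0.062). With the trend on the median transcript removed, 14 mitochondrial ribosomal, 14 proteasome, 6 import and 6 antioxidant genes were higher, and with that on the longest transcript 12, 3, 3 and 6. In each case 1 mitochondrial ribosomal gene was lower.

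The pathways that feed electrons to the chain were counted in the same way. The tricarboxylic acid cycle with pyruvate dehydrogenase had 0 of 18 genes higher and 1 lower (*Ogdh*, -0.11, standard error 0.049), with a median of 0.038. Glycolysis had 3 of 17 higher and 1 lower, with 1 called by DESeq2 in each direction and a median of 0.038, and after removal of mouse 9_3 or of control mouse 1_1 or 2_2 it had 1 higher. The lower gene, *Pfkp*, an isoform of phosphofructokinase, was called by DESeq2 at -0.13 (standard error 0.043). The higher one called was *Ldhb*, a lactate dehydrogenase subunit, at 0.16, and *Aldoa* was at 0.03 (standard error 0.053). Regulators of mitochondrial biogenesis had 0 of 15 higher and 2 lower (median 0.026), with *Ppargc1b*, a coactivator of mitochondrial genes, at -0.26 (standard error 0.084) and *Polg*, the mitochondrial DNA polymerase, at -0.00023 (standard error 0.039). The medians of the tricarboxylic acid cycle and of glycolysis were -0.0061 and -0.0014 once the trend on the median transcript was removed, and -0.0005 and 0.015 with that on the longest.

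**Figure D2:**
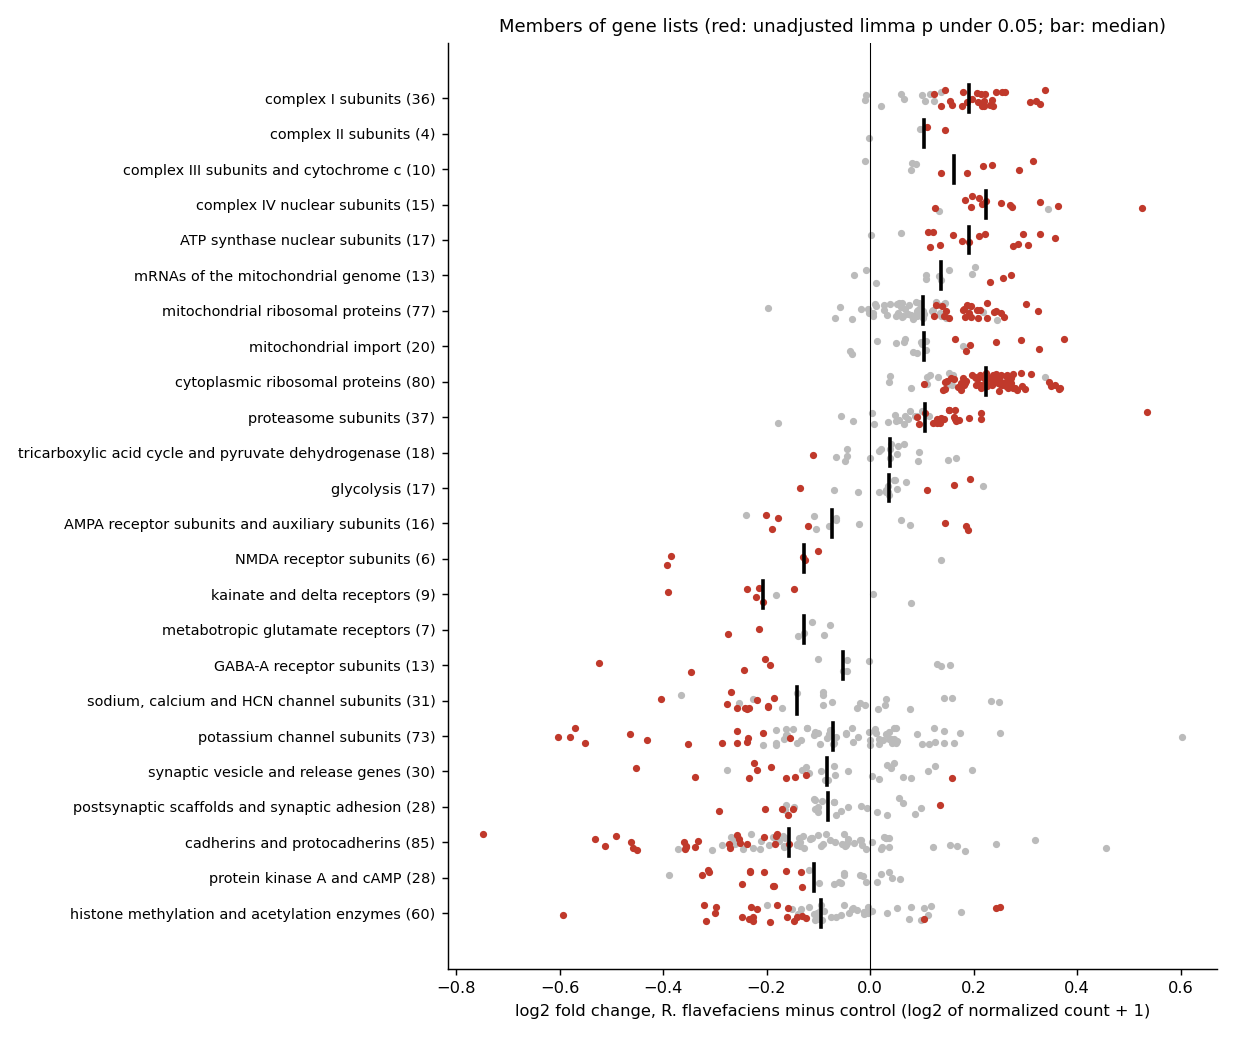
Log2 fold change of each tested member (points, horizontal axis, *R. flavefaciens* minus control, log2 of normalized count + 1) in 24 gene lists (rows, number of members in brackets), with members at an unadjusted limma p under 0.05 in red and the list median as a black bar. The medians of the respiratory, ribosomal and proteasome lists lie right of 0 and those of the receptor, channel and cadherin lists left of it, with spread on both sides in most neural lists.

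Glutamate receptors are given by class. Of 6 NMDA receptor genes 5 were lower and none higher, DESeq2 called 1, and the median was -0.13. *Grin2b*, the most abundant, spanned 11338 to 13640 counts with a median of 12529 in the control and 6569 to 12255 with a median of 9833 in the treated mice, so the groups overlapped, with mouse 9_3 lowest and 9_1 highest among the treated. Its log2 fold change was -0.39 (standard error 0.11) and -0.29 without mouse 9_3, when 1 of the 6 genes was lower. With treated mouse 8_3 or 8_4 or control mouse 2_1 or 3_1 left out there were 3, and with control mouse 2_2 left out 2. Of 9 kainate and delta receptor genes 6 were lower, 1 called by DESeq2, with a median of -0.21. *Grik3* was at -0.39 (standard error 0.11) and *Grik5*, the most abundant, at 0.08 (standard error 0.051). With the trend on the median transcript removed, 2 NMDA receptor genes were lower and 1 higher, and 4 kainate and delta genes were lower. With that on the longest, none of the NMDA and 1 of the kainate and delta genes was lower.

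AMPA receptors and their auxiliary subunits went both ways, with 3 of 16 higher and 4 lower (median -0.07), or 1 lower without mouse 9_3 and 2 without 8_4. *Gria2*, the abundant pore-forming subunit, was at -0.07 (standard error 0.045), while *Cnih2*, an auxiliary subunit, was at 0.18 (standard error 0.064). Metabotropic glutamate receptors had 2 of 7 lower (median -0.13), with *Grm3* at -0.28 (standard error 0.091) and *Grm5* at -0.22 (standard error 0.074). GABA-A receptors, the main inhibitory channels, had 5 of 13 lower and 2 called by DESeq2, with a median of -0.05, and 3 lower without mouse 9_3. *Gabrb1* had 3152, 3289 and 3612 counts against 1949, 2696 and 3099, without overlap, at -0.35 (standard error 0.078). AMPA genes numbered 2 lower under either length trend, with a median of -0.02, metabotropic genes 2 and 1, and GABA-A genes 4 and 3. Under either trend 1 GABA-A gene was higher, and 3 and 2 AMPA genes were.

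Of 31 sodium, calcium and HCN channel subunits 11 were lower and none higher (median -0.14), 2 called by DESeq2, and 7 were lower without mouse 9_3. *Cacna1e*, an R-type calcium channel, ranged from 5745 to 6265 counts in the control and from 2929 to 5575 in the treated mice, a log2 fold change of -0.40 (standard error 0.10). *Scn2a*, the most abundant, was at -0.23 (standard error 0.085). Potassium channels had 14 of 73 tested lower, 1 called by DESeq2 (median -0.07), and 7 without mouse 9_3. *Kcnk9*, a background leak channel, lay below the control range in all 6 treated mice, at -0.57 (standard error 0.15) with all mice and -0.39 without 9_3. Cadherins and protocadherins formed the largest of these lists, with 24 of 85 lower, none higher and 8 called by DESeq2 (median -0.16). *Pcdhb16* had 143, 161 and 173 counts against 79.4, 126 and 133, without overlap, at -0.45 (standard error 0.096), and *Pcdh10*, the most abundant, was at -0.24 (standard error 0.068). The protocadherin clusters hold similar genes, so the split of reads between them is uncertain. With the trend on the median transcript removed, 6 sodium, calcium and HCN, 8 potassium channel and 17 cadherin genes were lower, and with that on the longest 1, 6 and 16, with 1 potassium channel gene higher in each case.

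Synaptic vesicle and release genes had 9 of 30 lower and 1 higher, 3 called by DESeq2, with a median of -0.08. The active zone scaffold *Pclo* was at -0.45 (standard error 0.12) and *Snap25*, the most abundant, at 0.02 (standard error 0.069). Postsynaptic scaffolds and adhesion molecules had 5 of 28 lower, 1 called by DESeq2, and 1 higher, the last *Nlgn3*, a neuroligin, at 0.13 (standard error 0.042), with *Camk2a*, the abundant kinase of excitatory synapses, at 0.01 (standard error 0.06). That list had 3 lower without mouse 9_3, 8 without 9_2 and 9 without 9_1. In the cAMP pathway 12 of 28 were lower, none higher and 4 called by DESeq2 (median -0.11), and 6 were lower without mouse 9_3. The anchoring protein *Akap6* was at -0.31 (standard error 0.085) and the cyclase *Adcy1* at -0.23 (standard error 0.093). The numbers lower after removal of the trend on the median transcript were 6 for vesicle, 2 for postsynaptic and 8 for cAMP genes, and 3, 1 and 3 after removal of that on the longest. Those higher were 2, 1 and 0 after the first removal and 0, 3 and 2 after the second, so more postsynaptic genes were then higher than lower. The postsynaptic median was then -0.03 and -0.0043, against -0.08.

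Enzymes that methylate or acetylate histones had 19 of 60 lower and 3 higher, 3 called by DESeq2 as lower, with a median of -0.10 and 9 lower without mouse 9_3. *Kat6b*, an acetyltransferase, was at -0.32 (standard error 0.079) and *Ash1l*, a methyltransferase, at -0.30 (standard error 0.088). After removal of the trend on the median transcript 17 of these enzymes were lower and 2 higher, and after removal of that on the longest 4 and 3. Without mouse 9_3 1 was higher. Motor proteins were split, with 5 of 54 higher and 8 lower, 2 called by DESeq2 as lower (median -0.01), 1 and 6 without mouse 9_3, 2 and 2 with the trend on the longest transcript removed, *Dync2h1*, a dynein of cilia, at -0.35 (standard error 0.088) and *Kif5a* at 0.04 (standard error 0.12). The Wnt pathway that includes *Znrf3* had 3 of 53 higher and 4 lower, with *Znrf3* alone called by DESeq2 (median -0.0063), and 3 and 1 with the trend on the longest transcript removed, with *Dkk3* at -0.07 (standard error 0.07). Leaving out mice changed the 4 to between 2 (without 9_3) and 10 (without 9_1).

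Immediate early genes, which follow recent neuronal activity, had none of 22 at an unadjusted limma p under 0.05 and none called by DESeq2, with a median of 0.048. *Homer1* spanned 7485 to 8987 counts in the control and 4569 to 11236 in the treated mice, and *Ier2* was at 0.26 (standard error 0.19). Monoamine receptors, enzymes and transporters had 2 of 28 higher and 3 lower (median -0.04), or 5 lower without mouse 7_2. *Adra1a*, an alpha-1 adrenergic receptor, had 302, 327 and 343 counts in the control and 86.5, 247 and 306 in the treated mice, where 9_3 was lowest, and it was called by DESeq2 at -0.64 (standard error 0.18). Without 9_3 that was -0.39. The glucocorticoid receptor with its targets had 2 of 14 higher and 1 lower (median 0.14), with the target *Tsc22d3* at 0.26 (standard error 0.10) and the receptor *Nr3c1* at -0.05 (standard error 0.057). The 2 became 0 without control mouse 1_1, 1 without 2_2 or treated mouse 8_4 and 4 without 7_2.

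Interferon response and MHC class I genes had 6 of 22 tested higher and none lower, 0 called by DESeq2, with a median of 0.20, 2 higher without mouse 9_3 and 2 with the trend on the longest transcript removed. *Bst2*, an antiviral membrane protein, had 11.6, 18.9 and 26 counts in the control and 19.5, 33.3 and 47.6 in the treated mice, with overlap, and *B2m*, the shared MHC light chain, was at 0.19 (standard error 0.076). Among 33 olfactory receptors tested of 44 in the table, *Olfr729* alone was higher, 3 others were lower and the median was -0.06. *Olfr731*, on the same strand of chromosome 14, had 12.3 ± 4.82 (SD, n = 6) counts in controls and 10.7 ± 4.72 (SD, n = 6) with the bacterium.

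Markers of the tissue and of its neighbours were measured in the same mice. All libraries held high levels of excitatory markers, with *Camk2a* at 51331 ± 2018 (SD, n = 6) counts in controls and 51889 ± 3869 (SD, n = 6) with the bacterium. Of 8 excitatory markers 1 was higher and 2 lower (median -0.05), with *Sv2b*, a synaptic vesicle protein, at -0.22 (standard error 0.088). The 2 became 0 without mouse 8_4 or 9_3, and 1 without treated mouse 7_2 or control mouse 2_1, 2_3, 3_1 or 3_3. Of 8 upper layer markers none passed in either direction (median 0.0056), with *Lmo4* at 0.10 (standard error 0.058). All 10 deep layer markers were below the control mean, 4 at an unadjusted p under 0.05 (median -0.25), with *Fezf2* at -0.27 (standard error 0.091) and *Bcl11b* at -0.24 (standard error 0.089). They numbered 2 without mouse 9_3 and 7 without 8_3. The mean log2 difference from the control mean over the 10 genes ran from -0.08 to 0.16 in the control mice. Treated mouse 8_3, at 0.24, was above every control, and 8_4, at -0.04, was inside their range. The others were at -0.22 (9_2), -0.40 (9_3), -0.57 (7_2) and -0.74 (9_1). Of 10 inhibitory markers 4 were higher and 3 called by DESeq2 (median 0.08). *Sst*, the peptide of one interneuron class, had 1666, 2022 and 2130 counts against 2224, 2356 and 3181, without overlap, while *Gad1*, the enzyme shared by all, was at 0.04 (standard error 0.046). Removal of the trend on the longest transcript left 2 inhibitory markers higher and 3 deep layer markers lower, with 2 of the upper layer markers higher.

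Microglia markers were higher in 6 of 11, 2 called by DESeq2, with a median of 0.22 and all 11 above the control mean. *C1qb*, a complement component, had 239, 258 and 330 counts against 304, 332 and 432, whereas *Csf1r*, the most abundant, was at 0.09 (standard error 0.075). Their summed counts were 4892 ± 264 (SD, n = 6) in controls and 5587 ± 477 (SD, n = 6) with the bacterium. Astrocyte markers had 3 of 10 higher (median 0.14), with *S100b*, the one called by DESeq2, at 0.30 (standard error 0.09) and *Slc1a2*, the main glutamate transporter, at -0.12 (standard error 0.087). The myelin, oligodendrocyte precursor, endothelial and meningeal lists had 0 of 11, 0 of 6, 0 of 12 and 0 of 8 at an unadjusted p under 0.05, with medians of 0.13, 0.12, 0.09 and 0.21. DESeq2 called none of these either. Without control mouse 2_2, 2 of the 8 meningeal genes were higher. Myelin varied widely within groups, with *Mbp* from 5722 to 14327 counts in the control and from 5103 to 17905 in the treated mice and *Cnp* at 0.19 (standard error 0.32). *Olig1*, *C1ql1*, *Rgs5*, *Ly6a*, *Ptgds* and *Lum* were at 0.11, 0.12, 0.05, 0.32, 0.32 and 0.51, with standard errors of 0.15, 0.15, 0.086, 0.20, 0.24 and 0.33.

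Genes of choroid plexus and blood differed between single mice. *Ttr*, the abundant secreted protein of choroid plexus, had at most 3.08 counts in any control mouse. In the treated mice it had 0 (7_2), 3.9 (8_3), 657 (8_4), 7.89 (9_1), 32.9 (9_2) and 54.9 (9_3) counts. Only 4 of the list's 9 genes were in the table, *Kl* was at -0.0092 (standard error 0.23), and the summed counts were 74.5 ± 12 (SD, n = 6) against 228 ± 326 (SD, n = 6). All 5 blood genes measured were above the control mean, 4 at an unadjusted p under 0.05 (median 0.75), and their sums were 349 ± 65.7 (SD, n = 6) and 598 ± 205 (SD, n = 6). *Hbb-bs*, a beta globin, had 161, 214 and 290 against 262, 336 and 602 counts, and *Hbb-bt* was at 0.90 (standard error 0.33), with mouse 8_4 highest in both. Without 8_4 1 blood gene was left, and without control mouse 1_1 2 were. The striatal list had 1 of 10 higher, *Tac1*, also called by DESeq2, at 0.42 (standard error 0.13), with *Pde10a* up to 2190 counts in mouse 8_4 and up to 1332 in the controls. The list's sum was 8337 in 8_4 and at most 3888 in the controls. Olfactory bulb markers had 0 of 5 (median -0.14), with *Omp* at up to 88.4 counts in control mouse 2_2 and *Cdhr1* at -0.14 (standard error 0.32). Y-linked genes were present in every mouse, with *Ddx3y* at 793 ± 58.6 (SD, n = 6) and 800 ± 46 (SD, n = 6) and *Kdm5d* at -0.10 (standard error 0.063). The part of blood, choroid plexus, striatum or layer content in the results above was not tested.

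Scored by mouse, as the mean log2 difference of a list's genes from the control mean, the treated mice stood at different distances from the controls. The complex I score lay between -0.04 and 0.05 in the control mice. It was 0.44 in 9_3, 0.26 in 7_2, 0.14 in 8_4, 0.12 in 9_1, 0.08 in 9_2 and 0.04 in 8_3, so 8_3 was inside the control range. For the ribosomal list 9_3 (0.58), 8_4 (0.32) and 7_2 (0.20) led again, while 9_2 at 0.05 lay inside the control range of -0.05 to 0.06. The NMDA receptor score was -0.42 in 9_3, -0.22 in 8_4, -0.17 in 8_3, -0.10 in 9_2 and -0.09 in 7_2, and -0.00033 in 9_1, against -0.06 to 0.06 in the controls. Cadherin scores of all 6 treated mice were below every control, the mildest being -0.04 in 9_2 and the strongest -0.38 in 9_3. The order of the mice differed between lists: 7_2 was the second highest for complex I and among the mildest for NMDA receptors, and 8_3 the lowest for complex I and the third lowest for NMDA receptors.

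**Figure D3:**
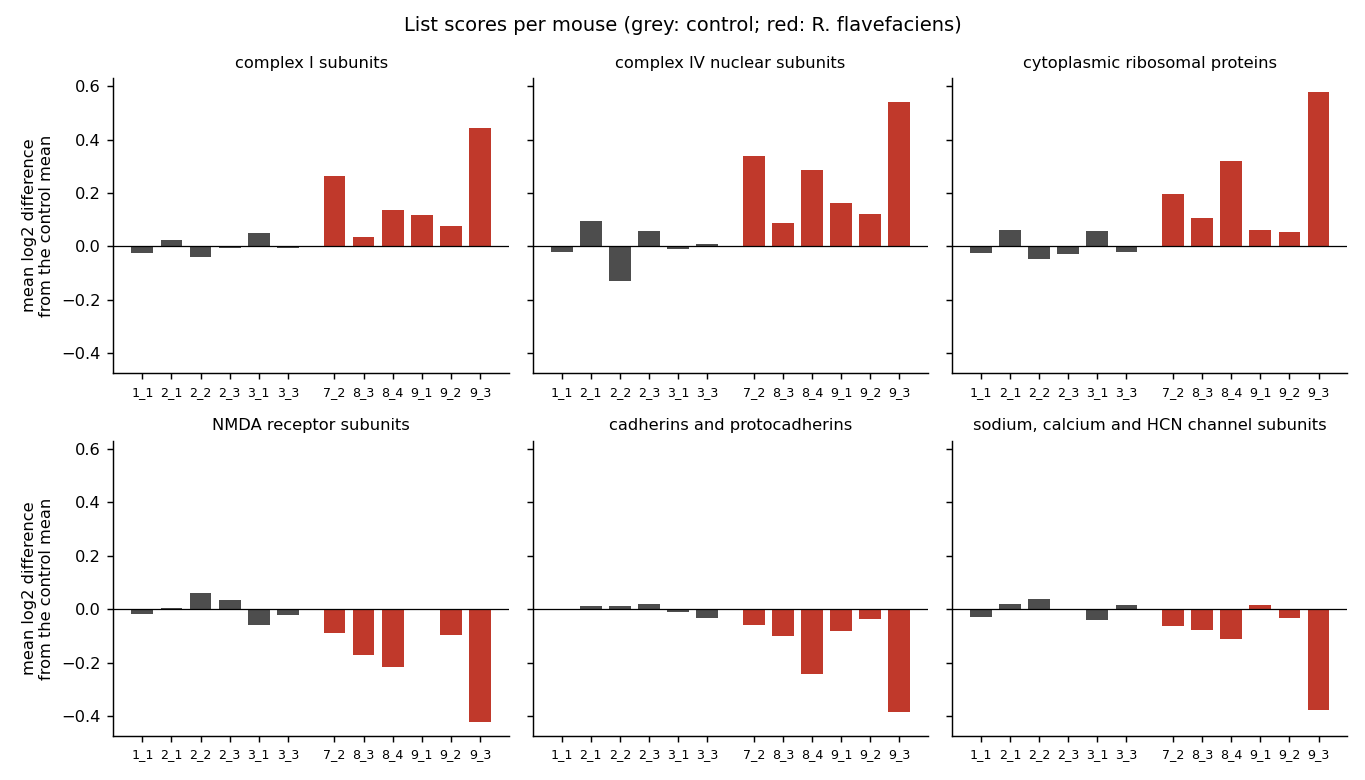
Mean log2 difference from the control mean over the members of 6 lists (vertical axis) in each control (grey) and *R. flavefaciens* mouse (red). Mouse 9_3 has the longest bar in every panel, up to 0.58 for ribosomal proteins and down to -0.42 for NMDA receptor subunits, and mice 8_3 and 9_2 lie near or inside the control range in several.

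The sign of the difference varied with transcript length. Over 14958 genes with a length, Spearman's rank correlation between log2 fold change and median transcript length was -0.30 (a description across genes, which are not independent), and with the longest transcript of each gene it was -0.47. In the shortest 5th of genes, up to 776 bases, the median log2 fold change was 0.05, with 17.6 percent of genes higher at an unadjusted p under 0.05 and 5.98 percent lower. In the longest, from 2938 bases, it was -0.08, with 2.24 percent higher and 20.7 percent lower. By the longest transcript, 24.9 percent of the shortest 5th, up to 2001 bases, were higher and 1.74 percent lower, and in the longest 5th, from 5346 bases, 0.902 percent were higher and 32.8 percent lower. The same correlation per mouse was between -0.08 and 0.04 in the controls and -0.35 in 9_3, -0.24 in 7_2, -0.20 in 8_4, -0.09 in 8_3, -0.08 in 9_1 and -0.06 in 9_2, the first 3 of which were also the first 3 by complex I score. Mice 7_2, 8_4 and 9_3 also had the fewest recovered reads of the treated mice, at 12811413, 12834286 and 13434125. Mice 8_3, 9_2 and 9_1 had 14452615, 14632188 and 14775494, and the controls 13435517 to 14446451. The part of depth in the length trend and in the scores was not tested. Complex I genes had a median transcript of 690 bases and cadherins one of 4012. Once the trend on the median transcript was removed from each mouse, list medians were 0.13 for complex I, 0.17 for complex IV, 0.17 for ribosomal proteins, -0.17 for kainate and delta receptors, -0.04 for NMDA receptors, -0.10 for cadherins and -0.11 for sodium, calcium and HCN channels. With that on the longest transcript removed they were 0.06, 0.09, 0.11, -0.09, -0.07, -0.11 and -0.05 in the same order. Over all genes, 836 were then higher and 797 lower at an unadjusted p under 0.05, and 1052 and 1311 after the first removal. The study's methods give RNA integrity only as a lower limit, and its part in the length trend was not tested.

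**Figure D4:**
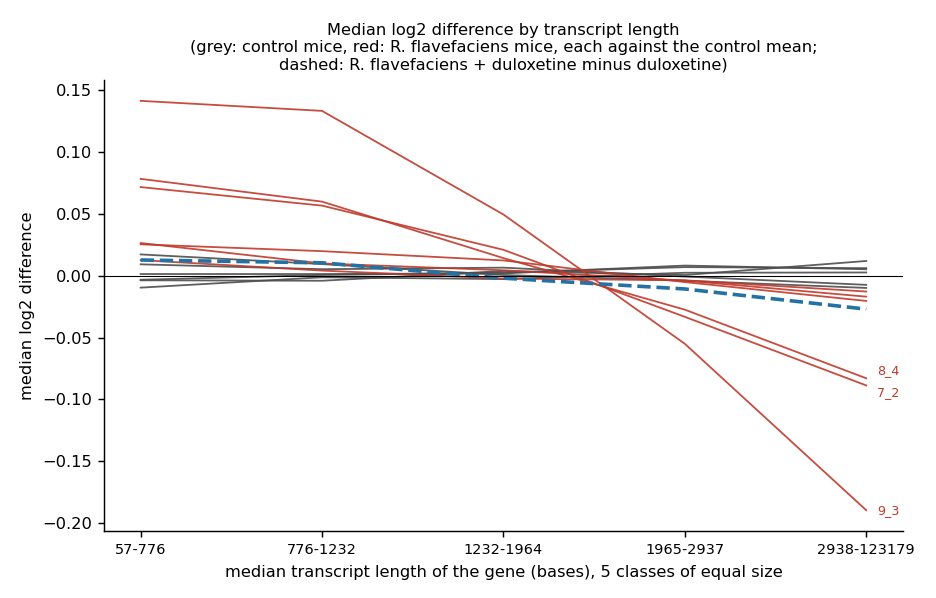
Median log2 difference from the control mean (vertical axis) in 5 classes of genes by median transcript length in bases (horizontal axis) for each control mouse (grey) and *R. flavefaciens* mouse (red), with the difference of *R. flavefaciens* + duloxetine minus duloxetine dashed. The lines of 9_3, 7_2 and 8_4 slope down most, from 0.14 to -0.19 in 9_3, and those of the control mice stay near 0.

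The bacterium was also given to mice that all had duloxetine, and these 12 mice share no animal with the comparison above. There, limma called 0 genes, with 883 at an unadjusted p under 0.05. DESeq2 called 1, *Dpysl2*, a regulator of axon growth, at -0.28 (standard error 0.051, limma). In the drug-free comparison *Dpysl2* was at -0.14 (standard error 0.051). *Olfr729* had 90.6 to 158 counts in the 6 duloxetine mice and 161 to 468 in the 6 mice with both, again without overlap, at 1.03 (standard error 0.23, limma adjusted p = 0.747). *Cox8a* was at 0.18 (standard error 0.065), *Zfp318* at -0.04 (standard error 0.051) and *Znrf3* at 0.06 (standard error 0.057).

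Of the 246 genes that DESeq2 called higher without the drug, 82.1 percent had a positive log2 fold change with it, beside 48.8 percent of all tested genes, and their median was 0.06. Of the 242 called lower, 85.5 percent were negative, beside 51.2 percent of all genes, with a median of -0.07. Their medians without the drug, 0.25 and -0.29, come from the mice in which they were called and are raised in size by that choice, so the sizes are not compared. At an unadjusted p under 0.05 with the drug were 17 of the 246 (6.91 percent) and 16 of the 242 (6.61 percent), beside 5.9 percent of all tested genes. The median transcript length was 755.5 bases for the 246, 2539 for the 242 and 1582 for all tested genes. The shares of all genes are thus not matched for length, and the part of length in the shared signs was not tested. The effects with and without the drug had a Pearson correlation of 0.145 and a Spearman rank correlation of 0.208 over all tested genes, which are not independent. List medians with the drug, beside those without it, were 0.03 and 0.19 for complex I, 0.08 and 0.22 for complex IV, 0.06 and 0.22 for ribosomal proteins, -0.0024 and 0.19 for ATP synthase and -0.07 and -0.16 for cadherins. The NMDA receptor medians were closer, at -0.11 and -0.13, and 12 of 49 lists had a median of the other sign. In 7 of the 49 the median lay further from 0 with the drug, which were glycolysis (-0.05 with and 0.04 without), immediate early genes (-0.08 and 0.05), monoamine genes (-0.08 and -0.04), the Wnt pathway (0.04 and -0.0063), excitatory markers (-0.10 and -0.05), upper layer markers (0.07 and 0.0056) and sex chromosome markers (0.04 and 0.01). The lists were chosen with earlier results of these data known, which can raise the size of their medians without the drug. No list was tested for the difference. The rank correlation with length was -0.12 there. As a test of the difference between the effects, the interaction gave 0 genes past the adjusted limma threshold, and DESeq2 and edgeR called none. At an unadjusted limma p under 0.05 were 1128 of the 14974 tested genes. These included 10 of 36 complex I, 3 of 15 complex IV and 6 of 17 ATP synthase genes. Of the other lists compared above, they included 5 of 80 ribosomal, 8 of 85 cadherin and 0 of 6 NMDA receptor genes. Further lists had 10 of 37 (proteasome), 10 of 77 (mitochondrial ribosomal), 9 of 60 (histone enzymes), 6 of 28 (monoamine) and 4 of 22 (antioxidant). Mitochondrial mRNAs had 0 of 13 and immediate early genes 0 of 22. The interaction contains the difference without the drug, so these counts are not independent of the list counts given for it. *Znrf3* had the smallest limma interaction p, 7.67e-05 before and 0.639 after adjustment.

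**Figure D5:**
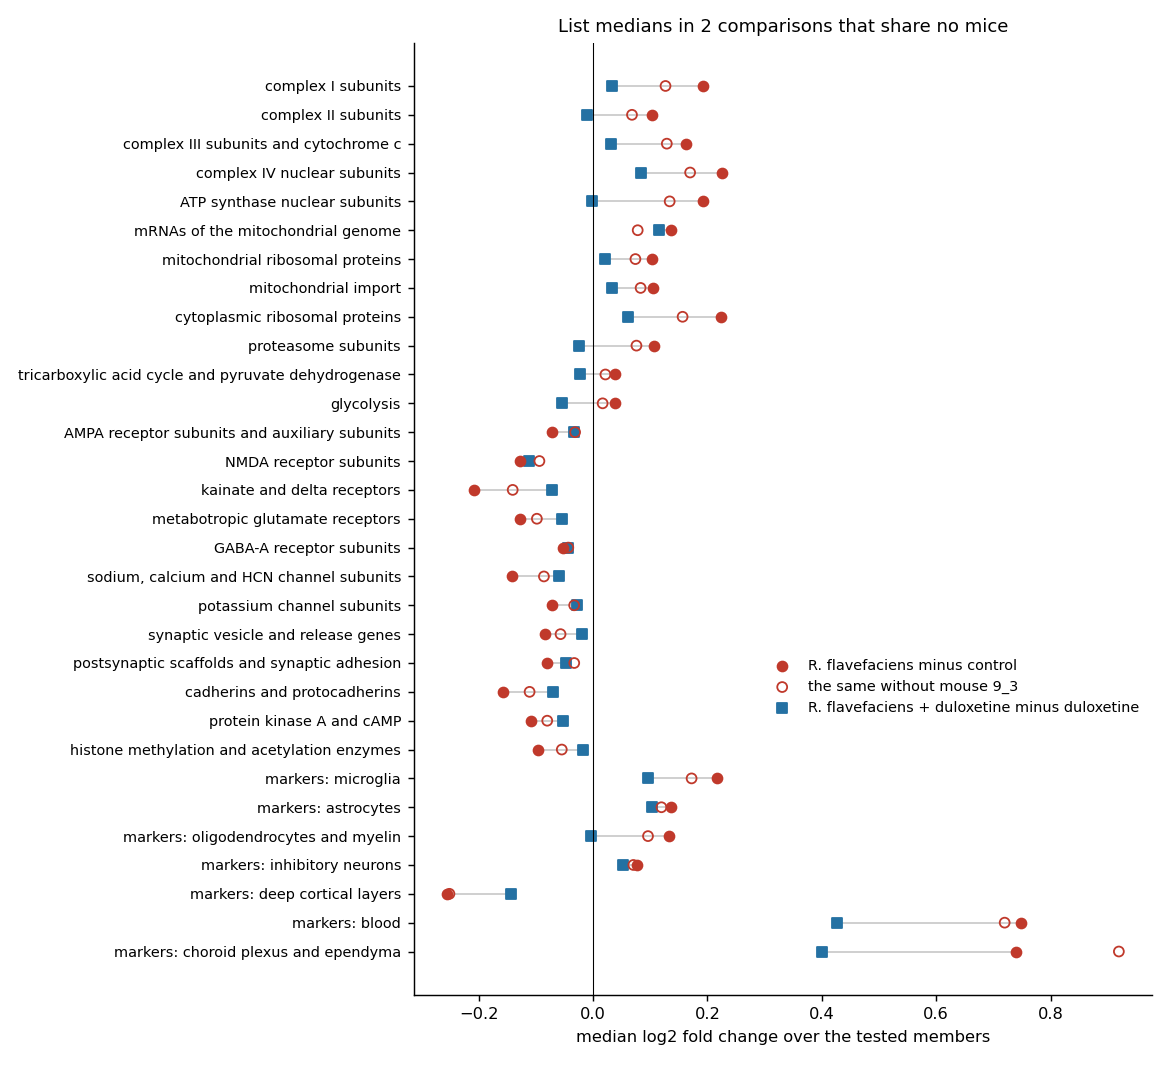
Median log2 fold change over the tested members (horizontal axis) of 31 of the 49 lists (rows) for *R. flavefaciens* minus control (filled circles), the same without mouse 9_3 (open circles) and *R. flavefaciens* + duloxetine minus duloxetine (squares), from mice the first comparison does not use. Squares lie nearer 0 than filled circles in each row shown but that of glycolysis (-0.05 against 0.04), for complex I at 0.03 against 0.19. Of the 7 lists further from 0 with the drug, glycolysis is the only one shown. The lists were chosen with earlier results of these data known, which can raise the size of the filled circles.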

How the data were processed

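Expression in the medial prefrontal cortex was measured by poly(A) RNA-seq in 24 mice, 6 per group. According to the methods, the authors mapped reads with Tophat2 to GRCm38.p5, while the submitters' processing notes list mm9, TopHat2 2.1.0, Bowtie2 2.2.6 and DESeq2 1.18.1. The counting program, its use of strand and the filter on genes are not given in the sources used here. The authors name DESeq2 and a fixed number of sequences per sample for the normalization. The deposited signal values do not show the latter, as their sums ranged from 13536601 to 14568454 in the 12 mice compared, so a size factor for each mouse was taken to have scaled its gene counts. They were 99.997 percent whole multiples of 1 step per mouse (tolerance 0.0051), which gave back the reads, and sums of these reads served as depth. All columns were mapped to mice by their names. Intervals of counting error were not needed, since each value is compared over 6 mice.

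The study's methods name DESeq2, but as the values are normalized, limma (3.58.1) was the main test. It was fitted with a mean trend on log2(normalized count + 1), with 24 mice and 4 groups in 1 fit, on the 14974 genes whose mean reached 10, and p-values were adjusted by Benjamini-Hochberg with a threshold of 0.05. Adjusted p-values without another name are from limma. DESeq2 (1.42.0) and edgeR's quasi-likelihood test (4.0.16) were run on the recovered reads as alternatives. The others were a pseudocount of 0.1, other filters, fits of the 2 groups alone, quantile and 75th percentile rescaling, removal of a loess trend (span 0.3) on transcript length, a block for the first label number, a threshold of 0.1 and leaving out each mouse. DESeq2 without mouse 9_3 and the list counts without each mouse or without the length trend, and removal of the same trend on the longest transcript, were added after the data were seen. The scripts were tested on simulated data. Positions and lengths came from GENCODE vM21, which held 15438 of the 15456 identifiers, and promoters from RefSeq.

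The comparison and the gene lists were chosen with earlier results of these data known. Named genes are those past the threshold, the 10 protein coding genes with the smallest p in each direction, the member with the smallest p and the most abundant member of each list with at least 4 tested genes, and the gene with the smallest p in the other 2 contrasts. Some named genes are not reported here. Other genes named were chosen after their values were seen.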

Additional observations from a re-analysis of the deposited data

Results flagged for a closer look

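In each group of 6 mice, a mouse was singled out where its gap to the nearest other mouse was above Dixon's 95% limit, as a share of the range of its group. This was so in 29 of 302 groups of values (9.6 percent). Chance gives about 1 in 20 for independent groups of values. These groups share mice and genes, so the 2 rates are not compared. Mouse 9_3 accounted for 12 of the 29, mouse 8_4 for 6, mouse 2_2 for 5, mouse 2_1 for 2 and mice 1_1, 2_3, 7_2 and 9_1 for 1 each.

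Mouse 9_3 stood high in 8 genes and low in 1 gene and 3 scores. It had 4603 normalized counts of *Cox8a*, where the other treated mice had 3397 to 3798. Its *Olfr729* was at 465 (others 163 to 217), *Ndufa1* at 583 (407 to 471), *Ndufb9* at 1155 (817 to 907.5) and *Cox4i1* at 6140 (4097 to 4755). *Timm8b* was at 728.6 (557.5 to 612.8), *Rpl41* at 2905 (1771 to 2100) and *Polr2g* at 838.5 (626.1 to 668.2). *Kat6b*, at 565.8, was below the others (744.6 to 850.2). Its scores, the mean log2 difference from the control mean, were -0.17 for AMPA receptors (others -0.05 to 0.0026), -0.37 for the cAMP pathway (-0.14 to -0.02) and -0.38 for sodium, calcium and HCN channels (-0.11 to 0.02).

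Mouse 8_4 stood high in genes of other tissues. *Ttr* was at 657 counts (others 0 to 54.9), *Hbb-bt* at 103.4 (32.1 to 54.7), *Hbb-bs* at 602 (261.5 to 363) and *Pde10a* at 2190 (746 to 1230), and the score of striatal markers was 1.56 (-0.25 to 0.36). Its *Sdha*, at 4817, was the lowest (5242 to 5491). *Camk2a* was at 59270 in mouse 9_1 (48380 to 51840), and the glucocorticoid score was -0.22 in mouse 7_2, where the other treated mice had 0.11 to 0.29.

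Among controls, mouse 2_2 stood high in meningeal and olfactory bulb genes, with *Lum* at 83.3 counts (others 16.9 to 32.6), *Omp* at 88.4 (4.21 to 19.7) and scores of 1.01 for meninges (-0.30 to -0.07) and 1.15 for olfactory bulb (-0.60 to -0.07). The same mouse had 1666 counts of *Sst* (1969 to 2130). Mouse 2_1 had 839 of *Nlgn3* (722 to 763) and 1.445e+07 recovered reads (1.344e+07 to 1.37e+07). Mouse 1_1 had 625 of *Sdhc* (675 to 701), and mouse 2_3 a metabotropic glutamate receptor score of -0.078 (-0.0028 to 0.034).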

How the results depend on the processing

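For *R. flavefaciens* against control, the 4 genes limma called (2 higher, 2 lower) became 579 (266 and 313) at an adjusted p under 0.1. DESeq2 on the recovered reads called 488 (246 and 242), DESeq2 on the 2 groups alone 57 (37 and 20), and DESeq2 without mouse 9_3, added after the data were seen, 67 (24 and 43). A random block for the first label number (correlation -0.045) gave 221 (104 and 117), while limma and edgeR on the 2 groups alone gave 0 (0 and 0). No label number occurs in both groups, so the block cannot separate label from treatment. A negative correlation within such blocks lowers the standard error of a difference between groups. The lower calls were 1 after 75th percentile rescaling and 1 after removal of the trend on the median transcript length. Removal of a trend on the longest transcript, added after the data were seen, left 1 (1 and 0). edgeR on 4 groups gave 4. Leaving out 1 mouse gave 0 to 616 calls, 0 to 254 higher and 0 to 362 lower. With duloxetine in both groups limma called 0, DESeq2 1 on 4 groups and 1 on 2 groups, the fits without the trend on the median or longest transcript 1 each, and leaving out 1 mouse 0 to 2. The interaction stayed at 0 in all settings run. The cause of these shifts was not tested.

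The difference in depth of 0.78 percent became -1.13 for sums of normalized counts and -0.608 to 2.26 when 1 mouse was left out. The rank correlation with length was -0.472 for the longest transcript and -0.311 for protein coding genes. The 4 called genes kept their sign in all settings run, and all 4 missed the threshold with limma and edgeR on the 2 groups alone. Without the trend on the longest transcript 3 of them missed it.

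Named genes near 0 changed sign without passing the threshold. After 75th percentile rescaling *Sdha* was 0.014, *Polg* 0.015 and *Kl* 0.0057. After quantile normalization *Sdha* was 0.049, *Tomm20* 0.021, *Polg* 0.019, *Camk2a* -0.084, *Snap25* -0.020 and *Kif5a* -0.097. Without the trend on the median transcript *Mrpl3* was -0.035, *Tomm20* 0.0024, *Aldoa* -0.010, *Psmd2* -0.043 and *Kl* 0.084. Without the trend on the longest transcript *Ecsit* was -0.062, *Atp5b* -0.0082, *Tomm20* 0.0062, *Aldoa* -0.061, *Polg* 0.12, *Psmd2* -0.012, *Gria2* 0.098, *Nr3c1* 0.038, *Slc1a2* 0.057, *Kl* 0.060, *Pde10a* 0.019 and *Kdm5d* 0.016. *Polg* was 0.00065 (DESeq2), 0.00084 (edgeR, 2 groups) and 0.00015 (block), and *Kl* 0.072 and 0.070 (DESeq2, 4 and 2 groups), 0.069 and 0.073 (edgeR) and 0.0016 (block). Leaving out 1 mouse gave ranges across 0 for *Ecsit* (-0.011 to 0.052), *Sdha* (-0.014 to 0.024), *Mrpl3* (-0.011 to 0.028), *Polg* (-0.015 to 0.012), *Psmd2* (-0.016 to 0.029), *Camk2a* (-0.026 to 0.033), *Snap25* (-0.0062 to 0.064), *Kl* (-0.16 to 0.19), *Pde10a* (-0.28 to 0.036), *Cdhr1* (-0.34 to 0.065) and *Ddx3y* (-0.022 to 0.044).

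Of the 49 list medians, 4 changed sign without the trend on the median transcript (tricarboxylic acid cycle, glycolysis, Wnt pathway, olfactory receptors), 5 without that on the longest transcript (tricarboxylic acid cycle, Wnt pathway, olfactory receptors, complex I assembly factors, complex II), 2 after 75th percentile rescaling (motor proteins, Wnt pathway) and 1 without mouse 9_3 (Wnt pathway). List counts also moved with the mouse left out, beside those given above with their lists: mitochondrial mRNAs had 1 to 5 genes higher, complex II 0 to 3, striatal markers 1 to 2, complex I assembly factors and the tricarboxylic acid cycle 0 to 2, and olfactory receptors 1 to 5 lower. Lists with no such gene in the direction of their median had up to 2 higher (meninges), 1 higher (immediate early genes, biogenesis regulators, upper layers) or 1 lower (olfactory bulb). No paired analysis was possible because the groups share no replicate number.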

Other observations

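Most genes that DESeq2 called in *R. flavefaciens* against control belonged to none of the lists, 163 of the 246 higher and 211 of the 242 lower ones. The other 83 and 31 were in a list. Most of the 14974 tested genes are likewise in none of the lists, so these numbers do not show that list members were called less often. The examples here were chosen after their values were seen, and none passed the limma threshold. On the higher side, *Selenow*, a small selenoprotein, had 4149 ± 233.5 (SD, n = 6) normalized counts in the controls and 5147 ± 657 (SD, n = 6) with the bacterium, a difference of 0.30 on the log2 scale (standard error 0.072). *Hmgb1*, an abundant chromatin protein that also acts as a danger signal outside cells, had 2444 ± 113.3 (SD, n = 6) against 2723 ± 87.5 (SD, n = 6), at 0.16 (standard error 0.036). Its treated values were less spread than its control values, and without mouse 9_3 it was at 0.14. *Cxcl14*, a chemokine that some interneurons make, was at 0.31 (standard error 0.076) and, without the trend on the median transcript, also at 0.31. *Chchd6*, which shapes mitochondrial cristae, was at 0.22 (standard error 0.054).

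On the lower side, *Chrna4*, a subunit of the nicotinic acetylcholine receptor, had 744.1 ± 55.1 (SD, n = 6) counts in the controls and 546.9 ± 115.8 (SD, n = 6) with the bacterium, at -0.46 (standard error 0.11). It was at -0.41 without mouse 9_3, at -0.50 without the trend on the median transcript and at -0.02 in the mice that all had duloxetine. *Sorcs1*, a sorting receptor of neurons, was at -0.34 (standard error 0.082) and at -0.12 with the drug. *Xrn1*, the exonuclease that degrades decapped mRNA, was at -0.29 (standard error 0.069), and *Thrap3*, a splicing and transcription factor, at -0.17 (standard error 0.04).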
